A study of Mus musculus with 85 samples.

Results

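The 2 mature arms of miR-378a (mmu-miR-378a-3p and mmu-miR-378a-5p in the deposited table) were followed through small RNA sequencing of 85 female mouse hearts. They are 2 of the 1977 mature miRNAs listed in the deposited counts, were taken by name and both had counts in all 85 hearts. The mice belong to the Hybrid Mouse Diversity Panel (HMDP), which gathers inbred strains. Every animal ate chow for 8 weeks and then food high in fat and sucrose (HF/HS diet) for the next 8 weeks, so that all were 16 weeks old and in 1 condition. There was 1 library per heart and no group on another diet. The strain and genotype of each heart were not used here. Differences between hearts therefore include strain, animal and library, which cannot be told apart. The p-values measure the spread between these libraries, except those of the chi-square test of counts, which is made against counting error.

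miR-378a is encoded in an intron of Ppargc1b, the gene of PGC-1β, a coactivator that turns on genes of mitochondrial biogenesis and oxidative metabolism. It is abundant in heart and skeletal muscle and is known for roles in lipid and mitochondrial metabolism. A miRNA precursor is cut into a 5p and a 3p arm, of which 1 is usually kept more often than the other. The kept arm guides silencing of mRNAs that pair with its seed, bases 2 to 8 of the mature sequence.

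In the GENCODE M21 annotation of GRCm38 (mm10), Mir378a takes up 66 bases on the minus strand of chr18:61397835-61397900. It lies inside Ppargc1b (chr18:61298136-61400431, minus strand) and overlaps no exon of that gene. A predicted miRNA gene on the plus strand, Gm25301 (chr18:61397813-61397925), covers the same bases. The strand setting of the authors' counting is not given in the sources used here, so if strand was not used the reads of the pair could not be told apart. The other family members lie elsewhere, Mir378b on chr11:88352773-88352864 opposite to Msi2, Mir378c on chr14:46954830-46954928 opposite to Samd4, and Mir378d on chr10:126710282-126710391 outside any annotated gene. Neither Mir378b nor Mir378c overlaps an exon of the gene it lies in.

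These relatives bear on how reads were divided between the rows of the family. By their mature sequences in RefSeq (GRCm38.p6), miR-378b and miR-378c share a run of 19 bases, and each shares 14 with miR-378d. Counts of near-identical rows are uncertain, because a read of one can be given to another.

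The sequences below, from the same source and with the seed in capitals, are shown because they belong to the miRNAs whose levels followed miR-378a-3p most closely across hearts among those with 1 sign of r in every long run of libraries, upwards for the first 3 and downwards for the other 4. The rows miR-30d-5p, miR-133a-3p and miR-126a-5p belong to the same group by the same rule.
let-7a-5p: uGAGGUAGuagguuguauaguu
miR-125a-5p: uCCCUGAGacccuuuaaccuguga
miR-125b-5p: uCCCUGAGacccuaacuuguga
miR-126b-3p: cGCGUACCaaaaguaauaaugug
miR-148a-3p: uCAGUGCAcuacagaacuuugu
miR-21a-5p: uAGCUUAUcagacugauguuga
miR-142a-3p: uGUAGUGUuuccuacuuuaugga
miR-125a-5p and miR-125b-5p carry the same seed, and the other 5 printed here each carry a seed of their own.

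The libraries held between 1457 and 30202 counts (median 12248). At 3 counts, the limit that a count of 0 allows, a miRNA had to reach 0.0245% of the counts to be told from absent in the median library and 0.206% in the shallowest. The first principal component of the 50 other miRNAs that passed the filter on low counts held 75.4% of their variance and parted the hearts into set A (58 libraries) and set B (27 libraries). These sets come from the data and not from the labels. They followed the library number in 8 runs, with set B at libraries 1 to 10, 15 to 18, 20 to 21 and 49 to 59. The summed share of leukocyte miRNAs moved with the sets, with a median of 0.314% and 0.442% in libraries 1 to 10 and 49 to 59 of set B, and of 1.83% and 1.77% in libraries 22 to 48 and 60 to 85 of set A. In these tissue samples, fewer cells of a type and less RNA per cell cannot be told apart. Of the 8 runs, 4 had at least 6 libraries and together held 74, and relations between miRNAs were computed within these runs.

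miR-378a-3p was a moderately abundant heart miRNA. It had 5469 counts in all, 0.479% of the 1142199 counts (95% Wilson interval 0.4663 to 0.4916%, counting error only), and ranked 34 of the 548 miRNAs with counts. Its neighbours in that order were miR-24-3p with 5701 counts, a member of the miR-23/27/24 clusters, and miR-21a-5p with 5348 counts, a miRNA of stress and fibrosis. The most abundant rows were far higher, with 251291 counts for miR-1b-5p and 202280 for miR-1a-3p, both from the muscle miR-1 precursors. Whether both rows counted the same reads was not tested, and the strand setting of the counting is not given. miR-126a-3p of endothelial cells (65803), miR-133a-3p of muscle (47040) and let-7f-5p (46789) came next.

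A library held 6 to 149 counts of miR-378a-3p, and the median library 57. As a share of the library it ran from 0.225% over a median of 0.426% to 1.18%. On the log2 CPM scale (TMM normalization, prior count of 2) the lowest heart was at 11.48, the median at 12.26 and the highest at 13.61, with an SD of 0.39 (n = 85). Most hearts were close together, since the middle of the distribution, from the lower to the upper quartile, reached only from 12.06 to 12.50.

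The level of miR-378a-3p by run overlapped throughout. In libraries 49 to 59 it was lowest at 12.26, at 12.56 in the median heart and at 12.98 in the highest, and in libraries 22 to 48 these values were 11.85, 12.39 and 12.98. Libraries 1 to 10 ran from 11.48 over 12.19 to 13.61, and libraries 60 to 85 from 11.53 over 12.08 to 12.72. Neighbours in this order of medians did not part beyond the spread of their hearts, which had an SD of 0.23 in libraries 49 to 59, 0.32 in 22 to 48, 0.60 in 1 to 10 and 0.24 in 60 to 85. The widest spread among the long runs was thus that of libraries 1 to 10. Between sets A and B the median moved from 12.16 to 12.41. This was a small step, since 45 of the 51 miRNAs that passed the filter moved by more, and the median miRNA moved by 0.16 in the same direction. The step of miR-378a-3p was 0.11 with DESeq2 size factors, 0.48 without TMM and -0.01 with TMM factors from all rows, so its direction hung on the scaling.

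**Figure D1:**
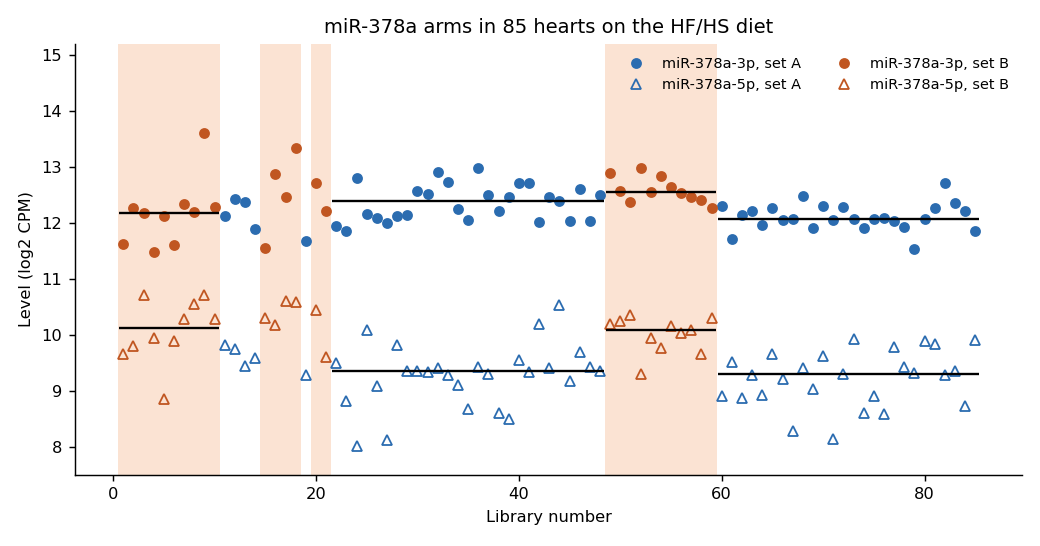
Level of both arms of miR-378a in each of the 85 hearts (log2 CPM, TMM, prior count of 2) against library number. Filled circles are miR-378a-3p and open triangles miR-378a-5p, blue for set A and orange for set B (shaded), and black lines are the medians of the 4 runs with at least 6 libraries. miR-378a-3p stands above miR-378a-5p in every heart, and library 9, at 13.61, is the highest.

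Single hearts stood apart at both ends. Library 9 had 130 counts of miR-378a-3p and the highest level, 13.61 against a median of 12.19 in its run. The lowest, library 4 of the same run, had 26 counts and a level of 11.48. Library 18, in the short run 15 to 18, came second with 89 counts and 13.34. In library 9 let-7a-5p was also high, at 16.06 against a run median of 15.07, and miR-126b-3p was low, at 12.87 against 13.98. Library 18 had the same pattern, with let-7a-5p at 15.81 against 15.01 and miR-126b-3p at 12.90 against 13.53. In library 4 let-7a-5p was low at 14.33 and miR-126b-3p close to its run's median at 14.05.

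miR-378a-5p, the less abundant arm, had 677 counts, 0.0593% of all (0.05497 to 0.06391%), and ranked 74. A library held between 1 and 22 of them, with a median of 8, so that its level in a single heart rested on few counts. It did not pass the filter on low counts, and its log2 CPM values (median 9.50, SD 0.62, n = 85) are given as a description. The 3p arm was the higher one in 85 of 85 hearts. Over all libraries there were 8.08 counts of miR-378a-3p per count of miR-378a-5p, and the 5p arm made up 11% of both (10.3 to 11.8%). Per heart the ratio ran from 2.56 in library 15 over a median of 8.12 to 69 in library 24, whose count of miR-378a-5p was 1.

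The arm share shifted with the sets of libraries. The 5p arm held 9.28% of the counts of both arms in set A (8.42 to 10.2%) and 14.2% in set B (12.8 to 15.7%), that is 9.77 and 6.06 counts of the 3p arm per count of the 5p arm. By run the 5p share was 16.2% in libraries 1 to 10 (13.5 to 19.3%), 8.67% in 22 to 48 (7.46 to 10.1%), 12.8% in 49 to 59 (11 to 14.8%) and 9.54% in 60 to 85 (8.31 to 10.9%). Both long runs of set B were above both of set A, and their pooled counting intervals did not touch those of set A. The single hearts did overlap, with 5p shares of 6.67 to 25.5% in libraries 1 to 10 (median 18%), 1.43 to 20.4% in 22 to 48 (7.89%), 5.7 to 19% in 49 to 59 (13.4%) and 2.94 to 18.4% in 60 to 85 (9.04%). Of the 27 hearts of set B, 25 had a 5p share above the median of set A. The sets were defined from other miRNAs of the same libraries, so the shift is given without a test, and what part the differences between the sets had in it was not tested. The arm share varied more than counting error would give, with a chi-square per degree of freedom of 1.8 over all libraries (84 degrees of freedom). Within runs the value was lower, at 1.42 (77). No p is given, because 15 libraries had fewer than 5 expected counts of miR-378a-5p.

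**Figure D2:**
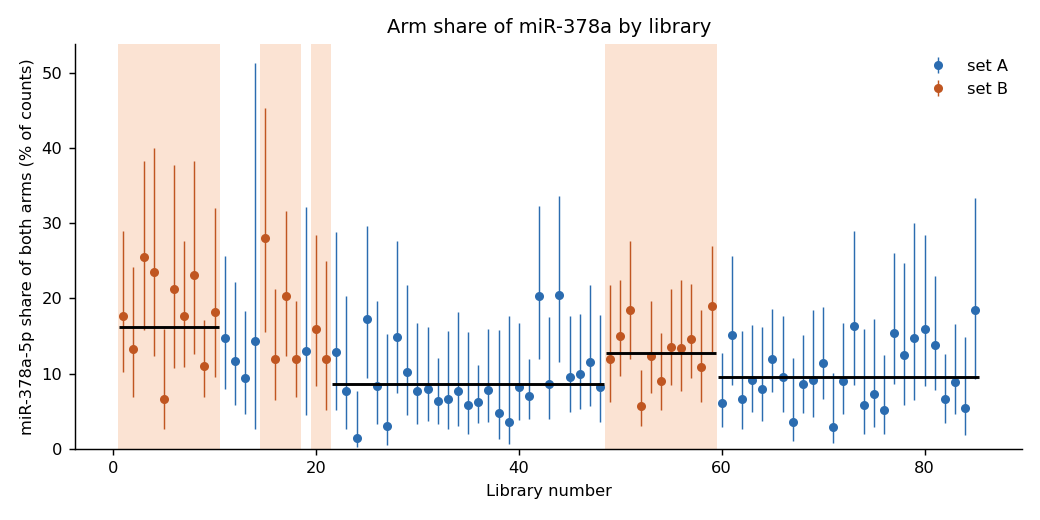
Share of miR-378a-5p in the counts of both arms (%) in each of the 85 hearts against library number, with 95% Wilson intervals for counting error. Points are blue for set A and orange for set B (shaded), and black lines are the pooled shares of the 4 long runs, 16.2, 8.67, 12.8 and 9.54% from left to right.

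Other precursors shifted too, and not all in the same direction. Among the 8 with at least 500 counts in each arm, the 5p share rose from set A to set B for miR-378a, by 0.69 on the log2 odds scale, and for miR-142a, a miRNA of blood cells, by 0.52. It was lower in set B by -2.45 for miR-30e, -1.60 for miR-133a and -1.43 for miR-30a, and differed by between -0.24 and -0.06 for miR-126a, miR-126b and miR-199a. miR-378a was thus 1 of 2 precursors with relatively more 5p arm in set B. For miR-30a and miR-30e the 5p arm was the more abundant one. It held 97.7 and 98.7% in set A and 94 and 93.4% in set B. Their less abundant arm therefore also held relatively more in set B, as it did for miR-378a and miR-142a. For miR-133a the less abundant arm was 5p and held relatively less in set B, 0.771% against 2.3% in set A. That of miR-126a, miR-126b and miR-199a was also 5p and held slightly less in set B.

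No relation between the levels of the arms was detected across hearts within runs. Pearson's r of log2 CPM between miR-378a-3p and miR-378a-5p, each taken as the difference from its run's mean, was 0.10 (p = 0.419, two-sided permutation of libraries within runs, n = 74) and Spearman's rho 0.09 (p = 0.469). The runs disagreed in sign, with r of 0.47 in libraries 1 to 10, 0.02 in 22 to 48, -0.55 in 49 to 59 and 0.04 in 60 to 85. Without libraries 9 and 4, the 2 farthest from their run's median of miR-378a-3p, r was 0.02 (p = 0.874). The spread of miR-378a-5p within runs, an SD of 0.51 on the log2 scale, was below the 0.64 that counting error alone would give to values without a prior count. How large a relation between the arms this depth could show was not tested.

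The other rows of the family had fewer counts than miR-378a-3p. miR-378b had 2351 counts (0.206% of all, rank 44), with a median of 24 per library and a range of 2 to 74, and miR-378c had 582 (0.051%, rank 82). miR-378d had 11 counts in 8 hearts and was at 0 in 77. miR-378b made up 30.1% of the counts of miR-378a-3p and miR-378b together (29.1 to 31.1%). That share was 32.5% in set A (31.3 to 33.8%) and 24.8% in set B (23.1 to 26.5%), and by run it was 20.8% in libraries 1 to 10, 29.5% in 22 to 48, 27.3% in 49 to 59 and 35.5% in 60 to 85. As a share of all counts miR-378b was at 0.208% in set A against 0.2% in set B, with runs from 0.135% in libraries 1 to 10 to 0.241% in 49 to 59, and miR-378a-3p was at 0.431% and 0.607%. On the log2 CPM scale the median of miR-378b was lower in set B under each scaling, a difference of -0.52 with TMM and with DESeq2 size factors, -0.11 without TMM and -0.69 with TMM factors from all rows.

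Hearts differed in miR-378a-3p by more than counting error. The chi-square of its counts against the library totals was 6.85 per degree of freedom (84 degrees of freedom, Benjamini-Hochberg adjusted p = 3.17e-74). All 51 miRNAs tested passed this test (100%), so passing it is no mark of miR-378a-3p. By size it ranked 37 of 51, where the values ran from 1.69 over a median of 12.2 to 178. At an equal relative spread this measure is larger for a miRNA with more counts, so the rank also depends on abundance. Within runs the value was 4.13 (adjusted p = 8.91e-31), rank 29 of 51 with a median of 4.25, and 51 of 51 passed again (100%). Without libraries 9 and 18, the farthest from the median of all hearts, the value over all libraries fell from 6.85 to 5.03, so the excess did not rest on them.

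Measured as a biological coefficient of variation in edgeR, with run in the model, the spread of miR-378a-3p was 0.224, rank 12 of 51 (median 0.188, range 0.0806 to 0.513). With no run in the model it was 0.26, rank 32, against a median of 0.33. Among the 51 miRNAs that passed the filter, miR-378a-3p was thus above the median in spread when the runs were taken into account. It was below that median when they were not. Its SD within runs was 0.34 on the log2 scale, and counting error would give 0.19, which is 33.5% of that variance.

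The level of miR-378a-3p had no detectable trend with library number within runs. The slope was 0.07 log2 per 10 libraries (SE 0.065, edgeR quasi-likelihood test, adjusted p = 0.688). None of the 51 miRNAs passed (0%) in edgeR, where 7 had an unadjusted p under 0.05, and DESeq2's Wald test passed 0, with 6 unadjusted. With no run in the model 43 of 51 passed (84.3%), and miR-378a-3p was not among them, with a slope of -0.026 and an adjusted p of 0.192.

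Many miRNAs rose or fell with miR-378a-3p from heart to heart. Within runs 27 of the 50 other miRNAs co-varied with it (54%), 15 upwards (30%) and 12 downwards (24%), at an adjusted p under 0.05 in the permutation test (100000 resamples of the libraries within runs, Benjamini-Hochberg over the 50). Over all 50 the median r was 0.04. All rows come from the same libraries and share 1 scaling to the total, so a rise in one lowers others to some extent, and these relations are not independent of each other.

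The miRNAs named next are those with the highest and the lowest r among calls with 1 sign in all 4 long runs, so their shared sign is part of the choice. The highest r upwards was that of let-7a-5p of the growth-restraining let-7 family (r = 0.57, adjusted p = 0.00025, rho = 0.40), before miR-30d-5p of the miR-30 family (r = 0.53, adjusted p = 0.0004, rho = 0.38) and the muscle miRNA miR-133a-3p (r = 0.52, adjusted p = 0.00117, rho = 0.36). miR-125a-5p (r = 0.47, adjusted p = 0.00605) and miR-125b-5p (r = 0.46, adjusted p = 0.005), which carry the same seed, came next. For miR-125a-5p the rank measure missed the threshold (rho = 0.25, adjusted p = 0.0924), and for miR-125b-5p it did not (rho = 0.30, adjusted p = 0.0386).

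The closest downward relation was with miR-126b-3p (r = -0.70, adjusted p = 0.000167, rho = -0.64), followed by miR-126a-5p (r = -0.60, adjusted p = 0.000167, rho = -0.46). Their genes lie on opposite strands of the same bases inside Egfl7, Mir126a on the plus strand of chr2:26591357-26591429 and Mir126b on the minus strand of chr2:26591363-26591420. miR-126a is the miRNA of endothelial cells that acts in vessel integrity, and reads of the pair could not be told apart if counting ignored strand. The abundant arm miR-126a-3p had an r of -0.16 (adjusted p = 0.288), which missed the threshold. The next under this rule were miR-148a-3p, known for its action on lipid metabolism (r = -0.53, adjusted p = 0.000167, rho = -0.45), the stress and fibrosis miRNA miR-21a-5p (r = -0.40, adjusted p = 0.0204, rho = -0.27) and the leukocyte miRNA miR-142a-3p (r = -0.37, adjusted p = 0.00981, rho = -0.39). miR-30b-5p, with an r of -0.46 (adjusted p = 0.00981), was below miR-21a-5p and miR-142a-3p but had an r of 0.22 in libraries 49 to 59.

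**Figure D3:**
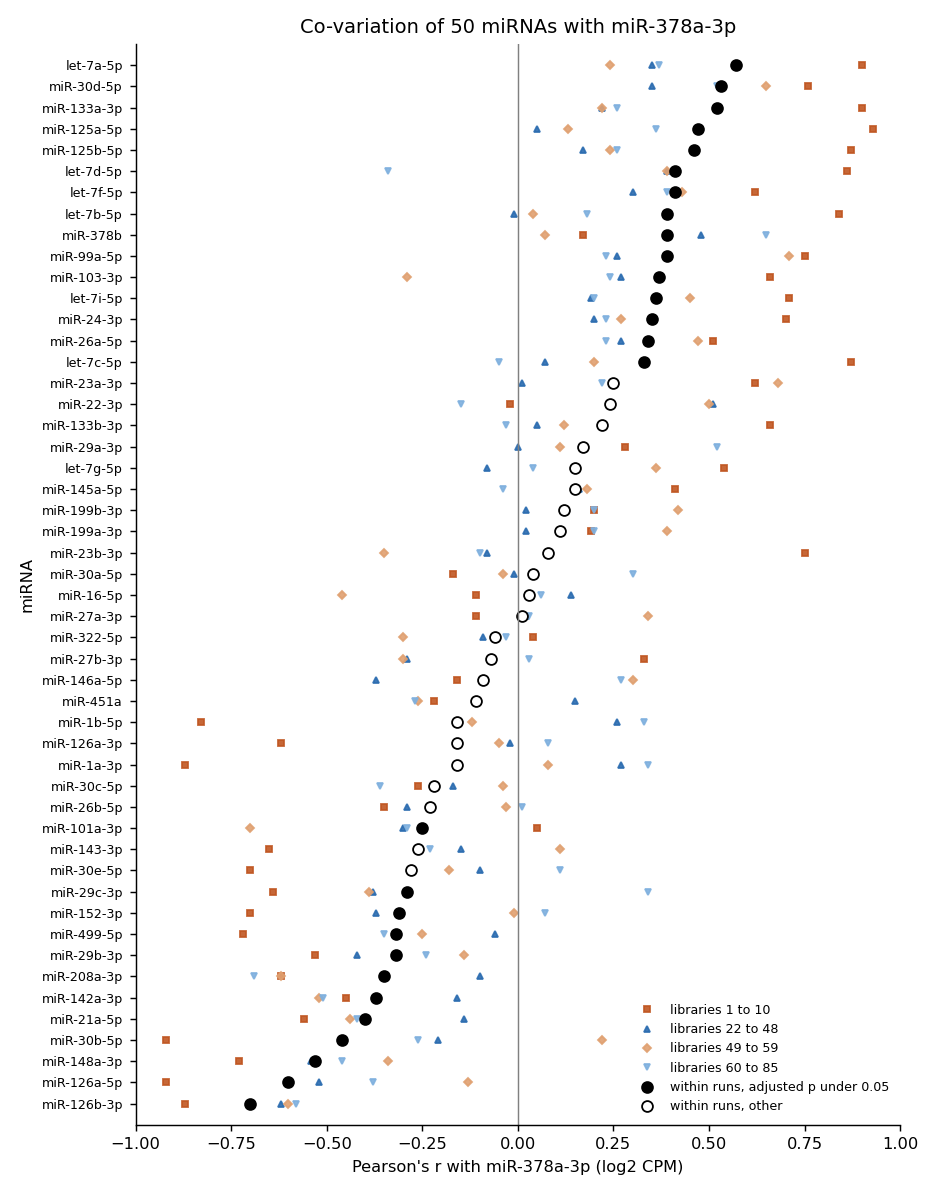
Pearson's r of log2 CPM between miR-378a-3p and each of the 50 other miRNAs that passed the filter, ordered by r. Circles give r within runs over 74 hearts, filled for the 27 with an adjusted p under 0.05, and small coloured symbols give r in each of the 4 long runs alone. Values reach from -0.70 for miR-126b-3p to 0.57 for let-7a-5p, and libraries 1 to 10 (squares) often lie farthest from 0.

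The 5 upward relations named above had their highest r in the first 10 libraries. There r was 0.90 for let-7a-5p, 0.90 for miR-133a-3p, 0.93 for miR-125a-5p and 0.87 for miR-125b-5p, while miR-125a-5p was at 0.05, 0.13 and 0.36 in the other long runs. The difference between runs was not tested. Taken alone, libraries 1 to 10 passed 13 of 50, libraries 22 to 48 passed 1 and libraries 60 to 85 passed 3. Libraries 49 to 59 passed 0 in the same permutation test, with 5 at an unadjusted p under 0.05. Without libraries 1 to 10 the count fell from 27 to 9, all of them among the 27, and without libraries 9 and 4 it fell to 14, also all among the 27. The 9 were let-7a-5p, let-7f-5p, miR-30d-5p and miR-378b upwards, and miR-101a-3p, miR-142a-3p, miR-148a-3p, miR-126a-5p and miR-126b-3p downwards. The r of miR-133a-3p, miR-125a-5p and miR-125b-5p was then 0.23, 0.16 and 0.20, with adjusted p-values of 0.207, 0.353 and 0.253, and that of miR-21a-5p was -0.28 (adjusted p = 0.0841).

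miR-126b-3p had a downward r with miR-378a-3p in each long run, a shared sign that is part of its choice. Its r was -0.87 in libraries 1 to 10, -0.62 in 22 to 48, -0.60 in 49 to 59 and -0.58 in 60 to 85. It was the 1 miRNA that passed the permutation test in libraries 22 to 48 alone (adjusted p = 0.028). In libraries 49 to 59 alone it missed the threshold of that test (adjusted p = 0.43). Without libraries 1 to 10 it stood at -0.60 and without libraries 9 and 4 at -0.61 (adjusted p = 0.0005 for both). In libraries 22 to 48 the heart with the highest miR-378a-3p (12.98, library 36) had the lowest miR-126b-3p of its run (13.98 against a median of 14.56). In libraries 60 to 85 the same held for library 82, with 12.72 and 14.18 against a median of 14.66, and library 79, with the lowest miR-378a-3p (11.53), had the highest miR-126b-3p (15.03). Other extreme hearts did not have this pattern, since library 23, lowest of its run in miR-378a-3p, had miR-126b-3p at 14.62 against a median of 14.56, and library 59 sat at its run's median of 14.06. Library 52, the highest in libraries 49 to 59, was at 13.96 against that median. With TMM factors from all rows and no filter its r was -0.39 and missed the threshold (adjusted p = 0.106 over 546 miRNAs), as did miR-126a-5p at -0.27 (adjusted p = 0.435).

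miR-30d-5p had an r of 0.76, 0.35, 0.65 and 0.52 with miR-378a-3p in the 4 long runs, in order of library number. It was the 1 miRNA of the 27 that passed in all 14 alternatives that used more than 1 run, with r between 0.38 and 0.61 and adjusted p-values up to 0.0103.

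Within its own family, miR-378a-3p rose with miR-378b (r = 0.39, adjusted p = 0.00419, rho = 0.41). The r was 0.17 in libraries 1 to 10, 0.48 in 22 to 48, 0.07 in 49 to 59 and 0.65 in 60 to 85, and without libraries 60 to 85 it was 0.31 and missed the threshold (adjusted p = 0.0851). miR-378c, which did not pass the filter, had an r of 0.46 with runs at 0.73, 0.38, 0.34 and 0.41. Since reads can pass between these near-identical rows, the values describe the rows and not separate transcripts.

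**Figure D4:**
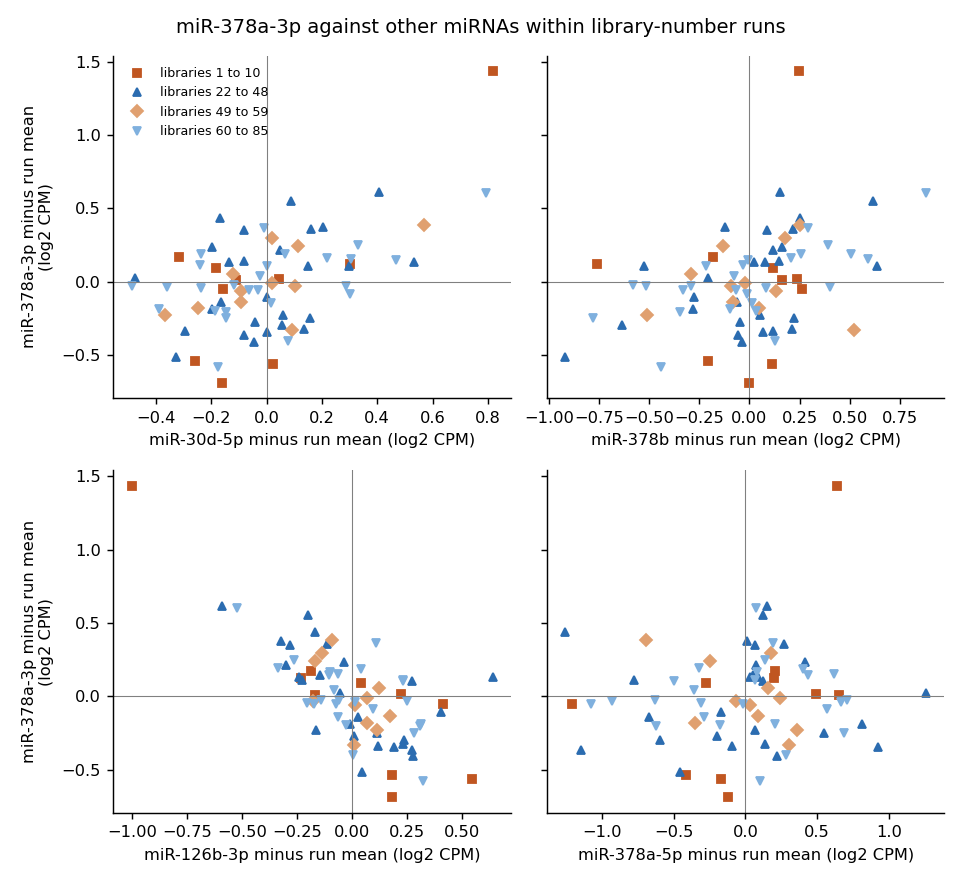
miR-378a-3p against miR-30d-5p, miR-378b, miR-126b-3p and miR-378a-5p in the 74 hearts of the long runs, each as log2 CPM minus its run's mean, with a symbol for each run. The points rise with miR-30d-5p (r = 0.53) and miR-378b (r = 0.39), fall with miR-126b-3p (r = -0.70) and show no slope with miR-378a-5p (r = 0.10); the point farthest up is library 9.

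The relations followed the component that also parts the libraries. Within runs miR-378a-3p had an r of 0.60 with the score of the first principal component of the other miRNAs (p = 1e-05, the smallest the resamples can give, adjusted p = 2e-05 over 2 library measures, rho = 0.48), with higher scores in set B. Its r was 0.90, 0.35, 0.48 and 0.52 in the runs, and 0.46 without libraries 9 and 4. With the log2 total count r was 0.23 (adjusted p = 0.0525, rho = 0.28). Given that score, 4 of the 50 miRNAs passed, miR-126b-3p (partial r = -0.52, adjusted p = 0.0005), miR-126a-5p (-0.43, adjusted p = 0.004), miR-30d-5p (0.39, adjusted p = 0.0103) and miR-378b (0.37, adjusted p = 0.0186). let-7a-5p was then at 0.25 (adjusted p = 0.186), miR-133a-3p at 0.16 (0.448) and miR-148a-3p at -0.33 (0.0657). The score is computed from the same 50 miRNAs, so its r and the partial values partly restate the relations above. What the component stands for was not tested. GC content moved with these relations too. The median GC content of the mature sequence was 45.5% in the upward, 36.4% in the downward and 42.2% in the other miRNAs. Across the 41 miRNAs with a sequence the r with miR-378a-3p had a correlation of 0.44 with GC content (rho 0.46), a description over miRNAs of the same libraries, and its part in the result was not tested.

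Members of a seed family did not always move together. Of the 7 let-7 miRNAs tested 6 rose with miR-378a-3p, and the other, let-7g-5p, had an r of 0.15. Over all miRNAs tested 30% were called upwards, a share that includes these 6. Only let-7a-5p and let-7f-5p of them passed without libraries 1 to 10, and likewise without libraries 9 and 4, and none passed given the first principal component. miR-148a-3p and miR-152-3p, which carry the same seed, both fell with it. Of the miR-29 family, repressors of collagen genes, miR-29b-3p (r = -0.32) and miR-29c-3p (r = -0.29) fell and miR-29a-3p had an r of 0.17 (adjusted p = 0.201). miR-30d-5p rose with it, miR-30b-5p fell (r = -0.46), and miR-30a-5p, miR-30c-5p and miR-30e-5p missed the threshold with r between -0.28 and 0.04. Whether members of a family differed from each other was not tested.

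Other miRNAs carried in introns of metabolic or myosin genes split by direction. Of 6 listed, 3 passed the filter, and all 3 co-varied with miR-378a-3p, beside 54% of all miRNAs tested. miR-103-3p, from the pantothenate kinase genes Pank2 and Pank3, rose with it (r = 0.37, adjusted p = 0.0355). miR-208a-3p of the myosin gene Myh6 (r = -0.35, adjusted p = 0.00971) and miR-499-5p of Myh7b (r = -0.32, adjusted p = 0.0277) fell with it. None of these 3 passed without libraries 1 to 10, without libraries 60 to 85, with DESeq2 size factors or with no filter. The other 3 had too few counts, with 389 for miR-107-3p, 74 for miR-208b-3p and 6 for miR-33-5p, which lies in the sterol regulator gene Srebf2.

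Among 16 miRNAs known to act on mitochondrial or lipid metabolism, 11 were tested and 4 co-varied with miR-378a-3p, 1 upwards and 3 downwards, beside 54% of all miRNAs, and the median r was -0.16 against 0.04 over all. They were miR-103-3p, miR-29b-3p, miR-29c-3p and miR-499-5p, and none of the 11 passed without libraries 1 to 10. miR-148a-3p, named above for lipid metabolism, is not on this list. It passed the permutation test without those libraries (r = -0.49, adjusted p = 0.00133). miR-27b-3p, which targets several genes of lipid metabolism, had an r of -0.07 (adjusted p = 0.622), miR-27a-3p 0.01 (0.915) and miR-23a-3p 0.25 (0.0561). Of 9 muscle miRNAs 5 were tested, of which miR-133a-3p rose and miR-208a-3p and miR-499-5p fell with miR-378a-3p (median r -0.16), beside 54% of all miRNAs, and none of the 5 passed without libraries 1 to 10. The near-copy miR-133b-3p had an r of 0.22 (adjusted p = 0.157). miR-1a-3p stood at -0.16 over the runs (adjusted p = 0.367), from -0.87 in libraries 1 to 10 against 0.27, 0.08 and 0.34 in the others. The row miR-1b-5p was also at -0.16 (adjusted p = 0.367), from -0.83, 0.26, -0.12 and 0.33. It may not be a separate observation, since reads shared with miR-1a-3p were not tested for.

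The markers of heart cell types were also set beside miR-378a-3p. All counts of calls among them stand beside the 54% over all miRNAs. Of 4 cardiomyocyte miRNAs tested 3 co-varied, 1 upwards and 2 downwards (median r -0.24), of which 0 passed without libraries 1 to 10 or given the first principal component. Their summed share ran from 17.6 to 29.2% of the counts, with run medians of 21.3, 22.2, 21.6 and 24.1%. Of 2 endothelial miRNAs 1 fell with it, miR-126a-5p, and their summed share ran from 3.73 to 8.5%. Neither smooth muscle miRNA passed, miR-143-3p at -0.26 (adjusted p = 0.0561) and miR-145a-5p at 0.15 (0.283), and of the fibroblast miRNAs miR-21a-5p fell while miR-199a-3p had an r of 0.11 (0.426). The erythroid miR-451a was at -0.11 (0.426). Of the leukocyte miRNAs 1 was tested, miR-142a-3p, which fell with it, and the summed leukocyte share ran from 0.194 to 4.19% over all hearts. The liver miRNA miR-122-5p had 399 counts, and of the neuronal markers miR-9-5p had 307 and miR-124-3p was at 0 in all 85 libraries. The part of the cell makeup of the tissue in these relations was not tested.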

How the data were processed

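Small RNA was sequenced from 85 hearts of female HMDP mice after the HF/HS diet, 1 library each. QIAseq libraries were made from total RNA and run on a HiSeq by the authors. The submitters' processing notes name HISAT2 2.0.6, HTSeq 0.13.5 and the build mm10. The deposited values are raw counts per mature miRNA, made by the authors without normalization. The miRNA annotation, trimming, strand setting and use of molecular identifiers are not given in the sources used here, so intervals (95%, Wilson) and the floor of 3 counts cover counting error only. Library totals were 1457 to 30202.

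Each of the 85 columns was matched to its library by title. Among the 3570 pairs of libraries the lowest chi-square was 1.29 per degree of freedom, so no library was taken for a repeat. Normalization was by TMM (edgeR 4.0.16, limma 3.58.1, R 4.3.3). filterByExpr kept 51 of 548 miRNAs, with 95.7% of the counts. It asked for a minimum count of 10 in at least 63 libraries, applied as a CPM cutoff at the median library total. The minimum total was 15. A prior count of 2 went into log2 CPM. Runs are stretches of consecutive library numbers in 1 set, where the sets are a 2-means split of the first principal component, computed without the miR-378a rows (scikit-learn 1.9.0). The 11 libraries of runs under 6 entered levels, variation and trend but not co-variation. Trend was fitted in edgeR (glmQLFit, glmQLFTest) with run as covariate. Co-variation used Pearson's r of run-centred log2 CPM with 100000 permutations within runs (numpy 2.4.6), and variation a chi-square test (scipy 1.17.1). P-values were adjusted by the Benjamini-Hochberg method with a threshold of 0.05. Tables and plots were made in Python 3.11.15 with pandas 2.3.3 and matplotlib 3.10.9. The tests were tried on simulated data.

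Alternatives were DESeq2 1.42.0 size factors and Wald test, no filter, CPM without TMM, the 84 libraries with at least 3062 counts, a prior count of 0.5, Spearman's rho, partial correlation given the log2 total, omitting the 2 libraries farthest from the median, all libraries centred on the sets, and each long run alone or left out. Partial correlation given the first principal component, the arm share by set and the chi-square without the 2 farthest libraries were chosen after seeing the data. The members and lists were chosen with earlier results of these data known. Named miRNAs are the miR-378 family, the 5 highest and 5 lowest r among calls with 1 sign in every long run, tested list members, both neighbours in counts and the 5 most abundant. Others, such as let-7g-5p, miR-30b-5p, miR-101a-3p and miR-152-3p, were named after their values were seen. Positions are from GENCODE M21. Mature sequences were matched by name in RefSeq (GRCm38.p6) for 41 of the 50 other miRNAs. Strain and genotype were not used here.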

Additional observations from a re-analysis of the deposited data

How the results depend on the processing

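The median level of miR-378a-3p was 12.16 to 12.27 and its share 0.479% under the alternatives run. Its chi-square per degree of freedom, 6.85, was between 4.13 (within runs) and 6.93 and passed each time. Its coefficient of variation was 0.212 to 0.26. The rank was 12 to 18 of 51 with run, 18 being that without TMM, and 32 with no run term. With no filter it was 0.225, rank 389 of 548 and below the median of 0.432. Depth limits miR-378a-5p, with a median of 8 counts per library, and 3 counts were 0.206% of the shallowest. The restriction to deep libraries left co-variation as it was by construction, since all 74 libraries of the long runs pass it. No paired analysis was possible because there is 1 group and the labels give no replicate numbers that pair libraries. The cause of the changes below was not tested, except that single runs and omissions hold fewer libraries and the unfiltered table has more tests (546).

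The slope of miR-378a-3p turned to -0.026 with no run term, and the number of miRNAs with a trend was 1 with DESeq2 size factors and 43 with no run term, against 0. The 5p share, 11% in all libraries, was 9.28% in set A alone and 14.2% in set B alone. The number of miRNAs that co-varied, 27, became 17 with DESeq2 size factors, 15 with no filter (14 upwards and 1 downwards, against 15 and 12), 14 without the 2 farthest libraries, 9 without libraries 1 to 10, 4 given the first principal component, and 13, 1, 0 and 3 in the long runs alone. The r of the arms turned to -0.55 in libraries 49 to 59 and to -0.02 without libraries 1 to 10.

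Changes of sign of r with miR-378a-3p touched mostly values that had missed the threshold. Without TMM miR-27b-3p turned to 0.05, and with DESeq2 size factors miR-27a-3p to -0.02. As rho, miR-126a-3p was 0.02, miR-1a-3p 0.07 and miR-1b-5p 0.08. With no filter miR-126a-3p was 0.14, miR-1a-3p 0.12, miR-1b-5p 0.12, miR-27b-3p 0.03 and miR-30e-5p 0.03. Without the 2 farthest libraries miR-126a-3p was 0.02, miR-1a-3p 0.12 and miR-1b-5p 0.13, and without libraries 1 to 10 they were 0.02, 0.26 and 0.22. miR-27b-3p was 0.14 without libraries 22 to 48, and miR-27a-3p -0.02 without libraries 49 to 59. In libraries 1 to 10 miR-27a-3p was -0.11 and miR-27b-3p 0.33. In libraries 22 to 48 miR-1a-3p was 0.27, miR-1b-5p 0.26 and miR-451a 0.15. In libraries 49 to 59 miR-103-3p, which passes over the runs, was -0.29, miR-143-3p 0.11 and miR-1a-3p 0.08. In libraries 60 to 85 miR-126a-3p was 0.08, miR-133b-3p -0.03, miR-145a-5p -0.04, miR-1a-3p 0.34, miR-1b-5p 0.33, miR-27b-3p 0.03, miR-29c-3p, which passes over the runs, 0.34 and miR-30e-5p 0.11. Given the first principal component, miR-125b-5p (-0.06), miR-142a-3p (0.10) and miR-208a-3p (0.03), which pass without it, changed sign, as did miR-145a-5p (-0.07), miR-199a-3p (-0.16), miR-1a-3p (0.23), miR-1b-5p (0.25), miR-23a-3p (-0.10), miR-27a-3p (-0.01), miR-29a-3p (-0.11), miR-30e-5p (0.21) and miR-451a (0.12). Of the other r values of single miRNAs 393 kept their side of the threshold, 124 no longer passed it and 13 newly did. Of 180 counts of calls in a list, 69 moved by over 1.5 times.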
